A study of Mus musculus with 27 samples.

Results

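Gene expression was compared between colon of mice that received FOLFOX and a probiotic complex after chemically induced neoplasia (CAC_FP, n = 5) and colon of untreated control mice (NC, n = 6), across 15080 of the 39971 genes of the deposited table. These are 11 of the 27 libraries of the series, 1 library per sample. Genes were chosen by a detection rule alone, an FPKM (fragment count scaled to gene length and library size) of 1 or more in 5 or more of all 27 libraries. All mice were wild-type BALB/c. NC mice had saline by both injection and gavage per the sample labels, while the series' design text calls them unprocessed, and their tissue was labelled as colon. CAC_FP mice received azoxymethane together with dextran sulfate sodium (AOM/DSS) until neoplasia was seen, then FOLFOX (folinic acid, fluorouracil and oxaliplatin) by injection and a complex of probiotics by gavage, and their tissue was a segment of colon that bore tumor. CAC_F mice (n = 5), which had AOM/DSS and FOLFOX with saline by gavage and gave the same kind of segment, are set beside them. All samples were taken 1 week after chemotherapy began and carry 1 batch label. Age, sex, doses, the make-up of the probiotic complex and the hour of sampling were not given in the sources used here. Tissue kind, AOM/DSS, FOLFOX and the probiotic all separate CAC_FP from NC, so their effects cannot be told apart in this comparison, and only the comparison with CAC_F holds tissue kind, AOM/DSS and FOLFOX constant.

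AOM is a carcinogen that acts on colonic epithelium and DSS injures that epithelium, so that together they give inflamed, tumor-bearing colon. Fluorouracil blocks the supply of thymidylate, folinic acid strengthens that block and oxaliplatin forms platinum adducts on DNA. The colonic crypt renews its lining from stem cells that give rise to absorptive, goblet, tuft and enteroendocrine cells, and injured epithelium is known to express a regenerative gene set with features of fetal gut. In bulk tissue fewer cells of a type and less RNA per cell cannot be told apart.

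Total counts were 60327257 to 79709845 per NC library and 63276601 to 72343614 per CAC_FP library. Levels below are CPM, counts scaled to library size after TMM normalization, and the 5 values of CAC_FP are given in the order of replicates 1 to 5. The first principal component of log2 CPM held 36.8% of the variance among the 27 libraries. NC libraries lay between -62.4 and -50.2 on it, CAC_FP replicates 1, 2, 3 and 5 between 40.6 and 56.6, and CAC_FP replicate 4 at 0.2, between the groups. The 5 CAC libraries, from tumor-bearing segments of mice with AOM/DSS and no FOLFOX, lay between -58.3 and -15.3. Two-sided p-values are from edgeR's quasi-likelihood test with Benjamini-Hochberg adjustment over the 15080 genes, and ± after a log2 fold change is a standard error derived from that test. Nothing in the labels says whether replicates within a group came from separate mice, so p-values measure the spread between these samples.

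**Figure D1:**
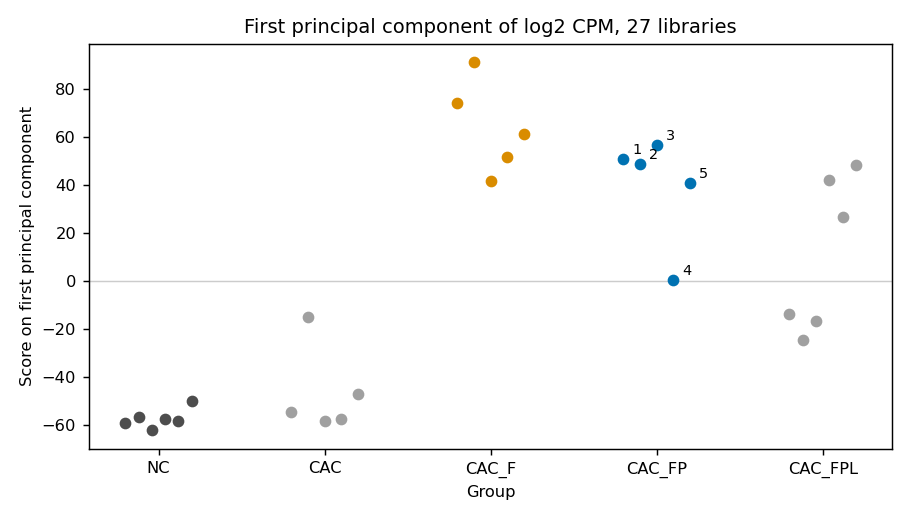
Score of each library on the first principal component of log2 CPM (36.8% of the variance), by group, with 1 point per library; CAC_FP points carry their replicate number, and the groups in pale grey are CAC and CAC_FPL, which had loperamide on top of the CAC_FP treatment. All 6 NC libraries lie below -50, 4 CAC_FP libraries above 40 and CAC_FP replicate 4 near 0.

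The groups differed in 4002 genes, 26.5% of those tested: 2121 (14.1%) were higher and 1881 (12.5%) lower in CAC_FP. Counts of list members below are to be read beside these 2 shares. The number of lower genes was 1110 without CAC_FP replicate 2 and 1224 without CAC_FP replicate 3, and 1880 genes were higher and 1318 lower without CAC_FP replicates 3 and 4. On log2(FPKM + 1) with limma, which moved the median of all genes from -0.03 to 0.10, 3294 genes were higher and 1039 lower, so that 76.0% of calls were upward against 53%. At least 2-fold changes were called in 703 genes upward (4.66%) and 581 downward (3.85%). CPM ranges did not overlap for 1266 higher genes (8.4%) and 1244 lower genes (8.25%). By fitted change the 12 largest rises without overlap were Spink6, Gml, Lcn2, Reg3b, Ly6g2, Prss22, Fpr1, Ly6g, Serpina3m, Reg3g, Cxcl5 and Adamts4. The 12 largest falls without overlap were the haemoglobins Hbb-bs, Hbb-bt, Hba-a1 and Hba-a2, the chymase Cma2, the pentraxins Mptx1 and Mptx2, the lectin Itln1, Gsdmc, Gsdmc4 and Gsdmcl2 of the gasdermin C family, and the phospholipase Pla2g4c.

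Some genes of the antimicrobial defence list rose and 2 fell. Reg3b, a secreted C-type lectin of the gut lining, was at 2043, 2269, 1786, 1033 and 2149.9 CPM in CAC_FP and at 3.38 to 31.3 CPM in NC (median 19.7, log2 fold change 6.55 ± 0.96, adjusted p = 0.00012). Its relative Reg3g, a lectin that binds Gram-positive bacteria, was at 521, 997, 1021, 133 and 488 CPM in CAC_FP and at 3.93 to 19.1 CPM in NC (median 10.5, log2 fold change 5.77 ± 0.82, adjusted p = 9.4e-05). Both were above every NC library in all 5 CAC_FP libraries, with replicate 4 lowest. Lcn2, lipocalin 2, which binds bacterial siderophores, was at 560.4, 79.2, 145, 3.77 and 269.5 CPM in CAC_FP against 1.41 to 2.63 CPM in NC (median 1.72, log2 fold change 6.86 ± 1.32, adjusted p = 0.0010). Replicate 4 was lowest but above the NC range, and replicate 1 was highest, without which the log2 fold change was 6.12. Saa3, an acute-phase protein, was at 947, 190.1, 490.3, 11.2 and 623 CPM in CAC_FP and 4.63 to 12.4 CPM in NC (median 6.33, log2 fold change 5.95 ± 1.21, adjusted p = 0.0015), and replicate 4 lay within the NC range. Pla2g2a, a secreted phospholipase that attacks bacterial membranes, was at 1987, 3085, 697, 967 and 2742 CPM in CAC_FP and 217 to 651 CPM in NC (median 379, log2 fold change 2.21 ± 0.48, adjusted p = 0.0024). Of 17 tested genes of antimicrobial defence 7 rose and 2 fell, against 14.1% and 12.5% of all genes. Their median log2 fold change was 0.82 against -0.03 over all genes. The summed level of the list's 19 genes was lower, at 8979 to 13186 CPM in CAC_FP (median 11827.5) and 12845 to 16717.5 CPM in NC (median 14788). Retnlb and Ang4, goblet cell genes with antibacterial products, are outside this list and fell (given below). The falls were Itln1, intelectin 1, a lectin of goblet and Paneth cells, and Pigr, which carries immunoglobulin A across the epithelium. Itln1 was at 43.9, 0.353, 1.23, 60.2 and 12.8 CPM in CAC_FP and 4348 to 5325 CPM in NC (median 5026, log2 fold change -7.69 ± 1.98, adjusted p = 0.0068), and Pigr at 1993, 1460.5, 850.1, 2885 and 1700.0 CPM against 4044 to 5378 CPM in NC (median 5052, log2 fold change -1.44 ± 0.38, adjusted p = 0.0078). For both, every CAC_FP library was below every NC library, and the log2 fold change of Itln1 was -8.37 without CAC_FP replicate 4.

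Most cytokines, chemokines and matrix proteases rose: 15 of 21 tested members of that list rose and none fell, with a median log2 fold change of 2.65. The number that rose was 11 to 16 over single omissions. Of the 21, 5 were higher without overlap, against 8.4% of all genes. Cxcl1, a neutrophil-attracting chemokine, was at 97.9, 15.4, 31.1, 0.167 and 31.7 CPM in CAC_FP and 0.0868 to 0.662 CPM in NC (median 0.361, log2 fold change 6.51 ± 1.54, adjusted p = 0.0039). Its level in replicate 4 lay within the NC range and the other 4 libraries were above it, with a log2 fold change of 5.69 without replicate 1. Csf3, which drives neutrophil production, was at 71.0, 6.70, 14.3, 0.0557 and 15.2 CPM and 0 to 0.0803 CPM in NC (median 0, log2 fold change 10.46 ± 2.16, adjusted p = 0.0016), again with replicate 4 within the NC range. All 5 counts of Csf3 in NC were in NC replicate 4, without which NC stood at 0 and the fitted value, 13.51, is no bound; without CAC_FP replicate 1 it was 9.23. Cxcl5, a further ligand of the same receptor, was at 19.0, 16.3, 42.3, 1.03 and 7.42 CPM and 0.134 to 0.714 CPM in NC (median 0.255, log2 fold change 5.70 ± 1.19, adjusted p = 0.0017), without overlap, with a log2 fold change of 5.07 without CAC_FP replicate 3. Il33, an alarmin of epithelium and stroma, was at 73.9, 102, 165, 20.7 and 68.3 CPM and 7.16 to 11.2 CPM in NC (median 8.11, log2 fold change 3.29 ± 0.58, adjusted p = 0.00057), also without overlap. Il1b, which encodes interleukin-1 beta, was at 31.5, 6.43, 15.7, 3.48 and 4.90 CPM and 1.07 to 5.62 CPM in NC (median 2.70, log2 fold change 2.16 ± 0.72, adjusted p = 0.030); this call was lost without any one of CAC_FP replicates 1 and 3 and NC replicates 1, 2 and 3, with adjusted p up to 0.14, and its log2 fold change was 1.48 without CAC_FP replicate 1. Timp1, an inhibitor of matrix metalloproteases, was at 13.5, 10.6, 19.1, 2.02 and 10.7 CPM and 0.532 to 2.43 CPM in NC (median 1.54, log2 fold change 2.95 ± 0.71, adjusted p = 0.0044). Ptgs2, the inducible cyclooxygenase, did not pass the test, at 6.66, 6.58, 8.72, 3.17 and 6.55 CPM and 3.47 to 10.2 CPM in NC (median 4.89, log2 fold change 0.20 ± 0.78, adjusted p = 0.87). Each of these 7 genes was highest in replicate 1 or 3 and lowest in replicate 4.

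NF-kappaB, a transcription factor of inflammatory signalling, is known to bind the Cxcl1 promoter, and that promoter is shown because Cxcl1 had the smallest adjusted p among the called members of the cytokine list with a match to the letters GGNNTTTCC. The 250 bases before its start (RefSeq, GRCm38.p6, chr5:90890995-90891244, plus strand) hold 2 matches, in capitals, the first read on the opposite strand.
Cxcl1: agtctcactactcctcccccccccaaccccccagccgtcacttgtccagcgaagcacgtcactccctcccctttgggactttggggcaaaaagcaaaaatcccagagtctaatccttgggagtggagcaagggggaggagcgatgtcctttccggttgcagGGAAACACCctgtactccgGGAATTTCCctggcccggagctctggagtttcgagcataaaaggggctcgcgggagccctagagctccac
Searched on both strands in windows of 250 bases before to 50 after each start, these letters were in 5 of the 18 cytokine list members with a promoter in the table (27.8%) and in 5.82% of all 32851 promoters. A list member counted as a match if any of its promoters held the letters, while the share of all promoters counts each promoter singly. Genes with several starts thus have more chances, so these 2 shares, here and for the later motifs, are of unlike units. None of the matches shown for this or the later promoters overlapped a match to another of the motifs searched.

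Adipocyte markers differed widely between libraries of both groups. The summed level of the 8 adipocyte genes was 1382, 119.9, 790.5, 56.3 and 621 CPM in CAC_FP and 39.1 to 946 CPM in NC, and none of the 8 was called. Adipoq, adiponectin, was at 34.6, 0.206, 26.4, 0 and 10.3 CPM in CAC_FP and at 51.8, 4.72, 79.2, 0.0643, 0 and 0 CPM in NC replicates 1 to 6. The CAC_FP libraries with adipocyte RNA (1, 3 and 5) were those with the most Saa3 and Lcn2. The NC libraries with most adipocyte RNA, replicates 1 and 3, had Saa3 at 4.63 and 5.02 CPM and Lcn2 at 1.89 and 1.41 CPM, with NC medians of 6.33 for Saa3 and 1.72 for Lcn2. Angptl4, a lipoprotein lipase inhibitor that adipocytes also make, was at 200.5, 46.5, 97.5, 11.0 and 109 CPM in CAC_FP and 0.603 to 5.40 CPM in NC (median 1.23, log2 fold change 5.27 ± 0.99, adjusted p = 0.00085). With the 5 libraries of at least 10 CPM of Adipoq left out, 2 CAC_FP libraries (replicates 2 and 4) and 4 NC libraries remained. Replicate 4 held the least Saa3 and Lcn2 of all CAC_FP libraries. In that fit 98 genes were higher and 53 lower. No member of the cytokine list was called in it, with log2 fold changes of 4.1 for Cxcl1 (adjusted p = 0.27) and 0.62 for Il1b (adjusted p = 0.78). In the same fit log2 fold changes were 3.56 for Saa3 (adjusted p = 0.22) and 4.44 for Lcn2 (adjusted p = 0.16). They were 4.92 for Angptl4 (adjusted p = 0.053) and 6.68 for Reg3b (adjusted p = 0.024). The part of adipose tissue in the cytokine and acute-phase values was not tested.

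**Figure D2:**
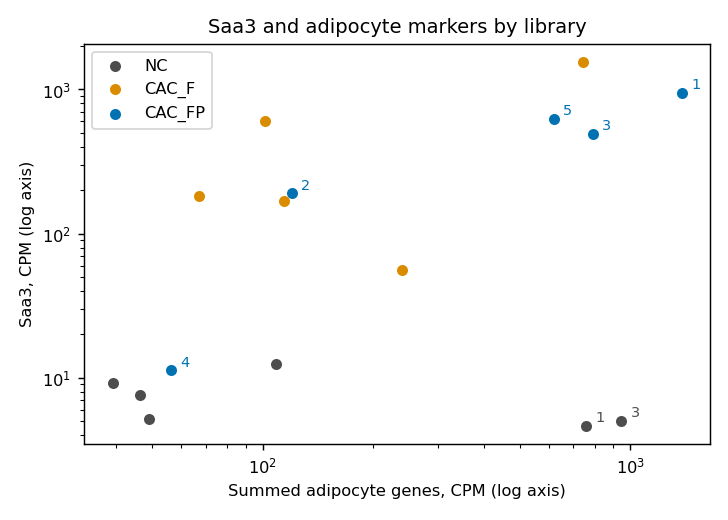
Saa3 against the summed adipocyte list, both as CPM on log axes, with 1 point per library of NC, CAC_F and CAC_FP. CAC_FP points and the 2 NC points furthest right carry their replicate number. The 2 NC libraries furthest right, replicates 1 and 3, are at 4.63 and 5.02 CPM of Saa3.

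Ly6g was the only neutrophil marker of the list called higher. Ly6g, a surface antigen widely used to mark mouse neutrophils, was at 646, 540.4, 145, 89.0 and 461 CPM in CAC_FP and 0.493 to 15.0 CPM in NC (median 3.17, log2 fold change 6.23 ± 1.14, adjusted p = 0.00074), without overlap, and the log2 fold change was 6.96 without NC replicate 4. Its neighbour in the family Ly6g2 was at 23.3, 23.9, 18.1, 5.36 and 15.1 CPM and 0.0519 to 0.369 CPM in NC (median 0.181, log2 fold change 6.51 ± 0.81, adjusted p = 3.1e-05). S100a8, a calprotectin subunit that is among the most abundant neutrophil transcripts, was at 0.301, 0.780, 0.415, 0.111 and 0.519 CPM in CAC_FP and 0 to 0.201 CPM in NC (median 0, log2 fold change 2.69 ± 1.19, adjusted p = 0.095). S100a9, its partner, was at 0.383, 1.56, 0.523, 0 and 0.146 CPM and 0 to 0.739 CPM in NC (median 0.0712, log2 fold change 1.16 ± 1.18, adjusted p = 0.49). Camp, Ngp, Elane and Cxcr2, genes of neutrophil granules and chemotaxis, were below the detection rule, with no CAC_FP library above 0.25 CPM. Of 6 tested neutrophil markers 1 rose and 1 fell, against 14.1% and 12.5% of all genes. The fall was Retnlg, a resistin-like granulocyte protein, at 1.83, 0.780, 1.38, 2.62 and 2.00 CPM and 3.09 to 6.52 CPM in NC (median 5.05, log2 fold change -1.50 ± 0.37, adjusted p = 0.0049). Sequence-similar Ly6 genes can share reads, and how such reads were counted was not given in the sources used here.

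Macrophage and monocyte markers rose in part, with 11 of 19 called upward, 1 downward (2 without CAC_FP replicate 2 and 2 without NC replicate 1) and a median log2 fold change of 0.88. Gpnmb, a glycoprotein of lipid-laden macrophages, was at 56.2, 19.1, 29.5, 66.3 and 66.0 CPM and 3.24 to 14.2 CPM in NC (median 7.38, log2 fold change 2.63 ± 0.48, adjusted p = 0.00071). Itgam, the integrin CD11b, was at 69.5, 35.5, 55.1, 20.7 and 60.2 CPM and 13.1 to 20.7 CPM in NC (median 15.2, log2 fold change 1.56 ± 0.33, adjusted p = 0.0021). Cd68, a lysosomal marker of macrophages, was at 37.6, 25.3, 27.3, 21.0 and 39.2 CPM and 11.7 to 20.7 CPM in NC (median 13.0, log2 fold change 1.10 ± 0.25, adjusted p = 0.0027). CAC_FP libraries lay above all NC libraries for Gpnmb and Cd68, and replicate 4 lay within the NC range for Itgam. The fall was Ccr2, the chemokine receptor of inflammatory monocytes, at 4.71, 1.81, 1.75, 4.01 and 3.65 CPM and 7.29 to 14.1 CPM in NC (median 8.93, log2 fold change -1.65 ± 0.43, adjusted p = 0.0074), without overlap.

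Genes of antigen presentation fell. Of 10 tested genes of MHC class II, the complex that presents peptides to helper T cells, 8 fell and none rose, with a median of -2.09. H2-Aa, a chain of the complex, was at 44.1, 36.1, 31.1, 60.5 and 80.0 CPM in CAC_FP and 163 to 383 CPM in NC (median 271, log2 fold change -2.43 ± 0.33, adjusted p = 7.8e-05). Cd74, the invariant chain, was at 517, 392, 329, 562 and 737 CPM and 1159 to 2511 CPM in NC (median 1488, log2 fold change -1.77 ± 0.29, adjusted p = 0.00032). Ciita, the master regulator of these genes, was at 7.55, 12.7, 35.4, 19.7 and 15.4 CPM and 35.9 to 131 CPM in NC (median 62.7, log2 fold change -2.06 ± 0.52, adjusted p = 0.0063). All 8 called members were without overlap, against 8.25% of all genes. Interferon-stimulated genes were lower in 15 of 25, none higher (12.5% and 14.1% of all genes), with a median of -1.31. Only 2 of the 25 were lower without overlap, against 8.25% of all genes. Isg15, a ubiquitin-like modifier, was at 4.04, 9.27, 10.4, 1.92 and 3.25 CPM and 9.04 to 86.3 CPM in NC (median 26.3, log2 fold change -2.47 ± 0.64, adjusted p = 0.0070), and Mx1, an antiviral GTPase, at 10.6, 8.92, 16.5, 13.7 and 8.20 CPM and 19.1 to 78.4 CPM in NC (median 39.6, log2 fold change -1.91 ± 0.41, adjusted p = 0.0020). For Isg15 replicates 2 and 3 lay within the NC range, and NC replicate 4 was highest for both genes, with a log2 fold change of -1.87 for Isg15 without it. The number of interferon genes called lower was 8 without CAC_FP replicate 1, 8 without CAC_FP replicate 4, 7 without CAC_FP replicate 5 and 6 without NC replicate 4.

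Some lymphocyte genes fell too. Of 15 T and cytotoxic cell genes 8 fell and none rose; that count was 4 without CAC_FP replicate 2, 5 without CAC_FP replicate 3 and 4 without NC replicate 6. Gzmb, a protease of cytotoxic cells, was at 5.88, 3.74, 1.97, 2.23 and 3.05 CPM and 8.77 to 52.6 CPM in NC (median 14.4, log2 fold change -2.67 ± 0.53, adjusted p = 0.0014), and every CAC_FP library was below every NC library. Among 17 B and plasma cell genes 5 fell and none rose, against 12.5% and 14.1% of all genes. Derl3, of the secretory machinery of plasma cells, was at 11.4, 10.3, 11.9, 10.7 and 14.9 CPM and 17.8 to 45.1 CPM in NC (median 37.5, log2 fold change -1.54 ± 0.30, adjusted p = 0.00099), and Jchain, which joins polymeric immunoglobulins, at 1001, 848, 696, 801 and 1327 CPM and 1070.3 to 2461 CPM in NC (median 2129, log2 fold change -1.11 ± 0.27, adjusted p = 0.0043), where replicate 5 alone lay within the NC range. The mucosal mast cell protease Mcpt1 was at 0.916, 0.530, 7.64, 3.61 and 4.75 CPM and 23.9 to 928 CPM in NC (median 95.3, log2 fold change -6.02 ± 1.51, adjusted p = 0.0057), without overlap. NC replicate 6 held the highest value, and without it the log2 fold change of Mcpt1 was -4.62. All 4 tested haemoglobin genes were called lower, and the summed level of the erythroid list was 0.561, 0.530, 0.692, 0.348 and 0.426 CPM in CAC_FP and 25.4 to 52.5 CPM in NC. Hba-a1, an alpha globin, was at 0.109, 0.0736, 0, 0 and 0.0532 CPM and 7.80 to 20.1 CPM in NC (median 10.2, log2 fold change -7.83 ± 1.42, adjusted p = 0.00069), without overlap. Hbb-bt, a beta globin, held 3 counts over the whole CAC_FP group, so no fold is given for it.

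Goblet cell genes fell in part. Of 17 goblet cell genes 12 fell and none rose, with a median of -1.45. Clca1, a protease of the mucus layer, was at 856, 456, 219, 952 and 664 CPM in CAC_FP and 10627 to 39568 CPM in NC (median 19159.6, log2 fold change -5.12 ± 0.65, adjusted p = 4.5e-05). Retnlb, a bactericidal protein of goblet cells, was at 68.3, 52.9, 22.8, 96.9 and 99.0 CPM and 1069 to 3644 CPM in NC (median 2255, log2 fold change -5.09 ± 0.80, adjusted p = 0.00023). Ang4, a ribonuclease with antibacterial activity, was at 63.0, 23.7, 0.769, 48.9 and 65.5 CPM and 1316 to 3590.2 CPM in NC (median 2452, log2 fold change -6.00 ± 1.30, adjusted p = 0.0024), lowest in replicate 3. Spdef, a transcription factor of goblet cell maturation, was at 113, 125, 50.3, 99.9 and 171 CPM and 301 to 389 CPM in NC (median 374, log2 fold change -1.70 ± 0.45, adjusted p = 0.0082). For these 4 genes no CAC_FP library reached the NC range. Muc2, the main gel-forming mucin, was not called, at 14101, 17528, 3103, 9398 and 23801 CPM and 9605 to 30906 CPM in NC (median 22975, log2 fold change -0.70 ± 0.53, adjusted p = 0.33), and 3 of 5 CAC_FP libraries lay within the NC range. Zg16 and Tff3, further secreted goblet cell products, were not called either. Zg16 was at 892, 650.3, 402, 686 and 925 CPM and 441 to 987 CPM in NC (median 616), and Tff3 at 201, 146, 169, 239 and 225 CPM and 168 to 273 CPM in NC (median 178) (adjusted p = 0.92 and 0.97).

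Gasdermin C genes and mucosal pentraxins fell in all 6 members, with a median log2 fold change of -7.37. Gsdmc2, a pore-forming protein of colonocytes, was at 32.6, 53.2, 47.4, 56.9 and 36.3 CPM and 845 to 3162 CPM in NC (median 2228, log2 fold change -5.54 ± 0.82, adjusted p = 0.00012). Gsdmc4 was at 4.04, 6.67, 5.67, 7.73 and 4.87 CPM and 308 to 1833 CPM in NC (median 1145, log2 fold change -7.56 ± 1.10, adjusted p = 0.00012). Mptx2, a secreted pentraxin of the gut, was at 0.506, 0.868, 0.292, 1.92 and 1.46 CPM and 21.1 to 1108 CPM in NC (median 48.7, log2 fold change -7.85 ± 1.28, adjusted p = 0.00029), with NC replicate 4 highest and a log2 fold change of -5.88 without it. Gasdermin C genes are closely related copies, so reads may be shared among them and single-copy values are uncertain. Tuft cell genes fell in 8 of 10. Trpm5, the cation channel of tuft cell taste signalling, was at 2.50, 0.706, 0.446, 1.14 and 0.492 CPM and 3.24 to 17.0 CPM in NC (median 14.1, log2 fold change -3.58 ± 0.53, adjusted p = 0.00012). Gnat3, gustducin, had no count in any CAC_FP library and was at 0.427 to 2.10 CPM in NC (median 1.69), at least 178-fold lower against a floor of 3 counts over the group. Sh2d6, a tuft cell adaptor, was at 0.752, 0.221, 0.323, 0.585 and 0.399 CPM and 3.61 to 15.9 CPM in NC (median 10.5, log2 fold change -4.56 ± 0.56, adjusted p = 3.1e-05). The tuft list median was -1.45, and it was the same with Gnat3 at its bound.

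Enteroendocrine genes did not move one way, with 2 of 11 called higher and 1 lower, against 14.1% and 12.5% of all genes. The number higher was 4 without CAC_FP replicate 3, 1 without NC replicate 2 or 4, and 0 without any one of CAC_FP replicates 1, 2 and 5 and NC replicates 1, 3, 5 and 6. Sst, somatostatin, was at 7.78, 9.33, 2.60, 8.85 and 9.01 CPM and 16.2 to 48.7 CPM in NC (median 30.3, log2 fold change -2.10 ± 0.41, adjusted p = 0.0012), without overlap. Pyy, peptide YY, was at 50.8, 59.2, 17.1, 35.3 and 44.4 CPM and 14.9 to 28.8 CPM in NC (median 17.6, log2 fold change 1.12 ± 0.41, adjusted p = 0.044); this call was lost when any one of 8 libraries was left out (adjusted p up to 0.12). Among 21 absorptive colonocyte genes 5 fell, with counts of 3 without NC replicate 2 and 3 without NC replicate 4. Car2, a carbonic anhydrase, was at 396, 402, 149, 489 and 325 CPM and 560.4 to 922 CPM in NC (median 706, log2 fold change -1.01 ± 0.28, adjusted p = 0.010), without overlap. Slc26a3, the chloride-bicarbonate exchanger of surface colonocytes, was at 52.8, 44.8, 73.6, 143 and 39.5 CPM and 103 to 415 CPM in NC (median 218, log2 fold change -1.79 ± 0.61, adjusted p = 0.033), and only replicate 4 was within the NC range; this call was lost without any one of 6 libraries (adjusted p up to 0.086). Cdx1, a transcription factor of intestinal identity, was at 132, 169.5, 215, 231 and 165 CPM and 286 to 424 CPM in NC (median 304, log2 fold change -0.82 ± 0.22, adjusted p = 0.0080). Lgr5, the crypt stem cell receptor, stayed below the detection rule, at 0.438, 0.765, 4.06, 3.88 and 0.971 CPM and 2.24 to 4.24 CPM in NC (median 3.52). Hoxa13, a marker of the distal gut, was at 3.83, 1.25, 0.538, 2.99 and 2.54 CPM and 1.59 to 38.8 CPM in NC (median 3.63, log2 fold change -2.04 ± 1.02, adjusted p = 0.14), where the ranges overlapped and NC replicate 4 stood apart from the other NC libraries. NC replicate 4 was also the highest NC library for Hoxa9, Hoxa10 and Hoxa11. Of 14 tested position genes none was called higher and 2 were called lower (14.1% and 12.5% of all genes). Most still had values below NC: 2 of the 14 had a log2 fold change above 0, and the median was -0.64 against -0.03 over all genes. The summed level of the position list was 533 to 786 CPM in CAC_FP and 802 to 1107 CPM in NC.

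Regenerative epithelium genes rose in 11 of 15, with none lower and a median of 1.83. Ereg, an EGF receptor ligand, was at 138, 149, 171, 34.1 and 143 CPM and 9.24 to 22.6 CPM in NC (median 14.0, log2 fold change 3.15 ± 0.52, adjusted p = 0.00032). Ly6a, the antigen Sca-1, was at 329, 462, 397, 65.7 and 360.3 CPM and 37.4 to 72.9 CPM in NC (median 55.9, log2 fold change 2.52 ± 0.44, adjusted p = 0.00051). Il1rn, the interleukin-1 receptor antagonist, was at 214, 232, 95.0, 114 and 152 CPM and 24.7 to 40.8 CPM in NC (median 33.5, log2 fold change 2.29 ± 0.34, adjusted p = 0.00012). Replicate 4 lay within the NC range for Ly6a and above it for the other 2 genes. Clu, a marker of revival stem cells, was not called, at 139, 149, 83.2, 151 and 150.3 CPM and 20.7 to 246 CPM in NC (median 53.3, log2 fold change 0.53 ± 0.61, adjusted p = 0.55). Cldn4, a junction protein, was at 104, 119, 31.0, 51.5 and 84.3 CPM and 7.15 to 25.5 CPM in NC (median 11.8, log2 fold change 2.40 ± 0.43, adjusted p = 0.00060), and Cldn15, a claudin that forms cation pores, at 125, 144, 141, 189 and 161 CPM and 271 to 340.0 CPM in NC (median 312, log2 fold change -1.03 ± 0.28, adjusted p = 0.010). In all 4 of 16 junction genes rose and 2 fell, against 14.1% and 12.5% of all genes. Myc, the growth regulator, was at 106, 102, 83.2, 52.6 and 75.0 CPM and 24.0 to 49.1 CPM in NC (median 25.7, log2 fold change 1.50 ± 0.30, adjusted p = 0.0014), without overlap. It is on the list of crypt stem and Wnt target genes, where 2 of 15 tested genes rose and 1 fell, against 14.1% and 12.5% of all genes. The median of that list was 0.009, and over single omissions 1 to 2 rose and 0 to 1 fell.

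**Figure D3:**
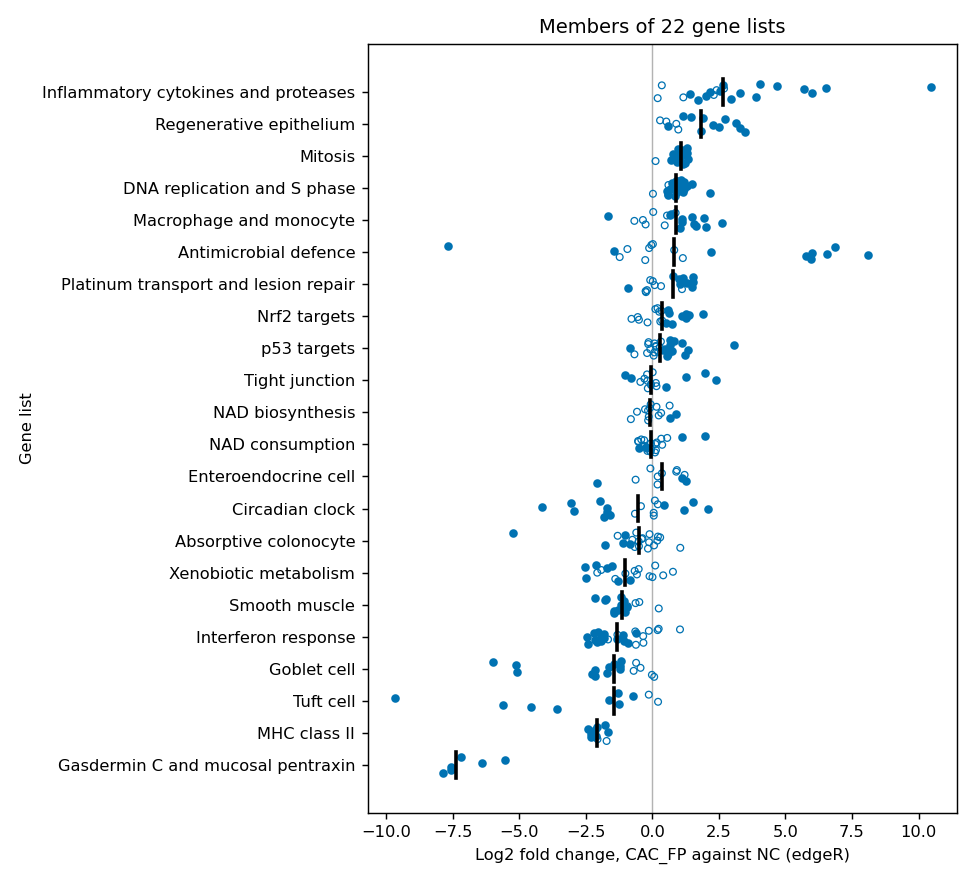
Log2 fold change, CAC_FP against NC, of every tested member of 22 gene lists; each point is a gene, filled where its adjusted p was below 0.05, and the bar marks the list's median. Cytokine, replication and mitosis lists lie to the right of 0, and MHC class II and gasdermin C lists to the left. The tuft cell list lies to the left but for 1 member.

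Proliferation genes rose. Of 23 genes of DNA replication and S phase 21 rose and none fell, with a median of 0.91, and of 18 mitosis genes 17 rose, with a median of 1.07. Rrm2, a subunit of ribonucleotide reductase, was at 95.1, 169.8, 152, 83.7 and 112 CPM and 15.2 to 46.6 CPM in NC (median 28.0, log2 fold change 2.16 ± 0.41, adjusted p = 0.00087). Pola1, the catalytic subunit of DNA polymerase alpha, was at 21.6, 29.5, 30.0, 26.8 and 24.1 CPM and 10.4 to 16.4 CPM in NC (median 14.3, log2 fold change 0.92 ± 0.16, adjusted p = 0.00064). Ccnb1, the mitotic cyclin, was at 69.3, 96.7, 81.1, 78.0 and 68.1 CPM and 23.1 to 38.2 CPM in NC (median 32.7, log2 fold change 1.32 ± 0.27, adjusted p = 0.0016). None of the 3 overlapped between groups. Mki67, a marker of cycling cells, was at 187, 270.4, 299, 305 and 229 CPM and 123 to 199.8 CPM in NC (median 160.0, log2 fold change 0.69 ± 0.22, adjusted p = 0.022); replicate 1 was within the NC range, and the call was lost without CAC_FP replicate 3 or NC replicate 1 (adjusted p up to 0.051). No one replicate was highest or lowest for all 4 genes.

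E2F factors are known to switch on S-phase genes, and the Pola1 promoter is shown because Pola1 had the smallest adjusted p among called list members with a match to TTTNNCGC. The 250 bases before its start (RefSeq, GRCm38.p6, chrX:93632156-93632405, minus strand, written along the gene) hold 1 match, in capitals, read on the opposite strand.
Pola1: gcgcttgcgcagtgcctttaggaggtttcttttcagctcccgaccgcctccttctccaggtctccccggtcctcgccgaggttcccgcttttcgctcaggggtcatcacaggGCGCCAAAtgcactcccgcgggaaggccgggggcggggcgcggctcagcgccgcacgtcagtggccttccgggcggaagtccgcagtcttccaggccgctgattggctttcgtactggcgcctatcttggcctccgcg
These letters were in 9 of 18 members with a promoter in the table (50.0%) and in 5.17% of all promoters.

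Targets of p53, a factor that responds to DNA damage, and genes of DNA repair rose in part. Of 26 p53 targets 12 rose and 1 fell, with a median of 0.30. Eda2r, a death-domain receptor, was at 28.5, 27.8, 4.68, 9.23 and 10.5 CPM and 0.974 to 2.73 CPM in NC (median 1.85, log2 fold change 3.08 ± 0.51, adjusted p = 0.00031). Ccng1, cyclin G1, was at 406, 389, 228, 224 and 254 CPM and 130.1 to 148 CPM in NC (median 134, log2 fold change 1.13 ± 0.18, adjusted p = 0.00021). Both were above every NC library in all 5. Cdkn1a, the cell cycle inhibitor p21, was not called, at 222, 169.6, 147, 124 and 127 CPM and 92.1 to 203 CPM in NC (median 147, log2 fold change 0.08 ± 0.22, adjusted p = 0.80), and its sign turned when single libraries were left out. The fall was Gadd45a, a stress sensor, at 17.6, 15.7, 16.1, 15.8 and 12.9 CPM and 15.9 to 37.1 CPM in NC (median 30.0, log2 fold change -0.85 ± 0.24, adjusted p = 0.012), with replicates 1 and 3 within the NC range. Among 17 genes of platinum transport and lesion repair 8 rose and 1 fell. Brca1, of homologous recombination, was at 30.7, 40.5, 30.3, 36.1 and 26.1 CPM and 7.95 to 17.4 CPM in NC (median 11.1, log2 fold change 1.52 ± 0.26, adjusted p = 0.00048), and Fancd2, of crosslink repair, at 15.5, 21.5, 14.3, 20.0 and 14.4 CPM and 4.48 to 8.33 CPM in NC (median 5.57, log2 fold change 1.54 ± 0.27, adjusted p = 0.00050). Of 15 fluorouracil and folate genes 4 rose and 1 fell, against 14.1% and 12.5% of all genes (7 rose without CAC_FP replicate 4, and 2 fell without NC replicate 4). Tyms, the target of fluorouracil, was at 27.4, 39.0, 46.1, 33.0 and 34.1 CPM and 19.7 to 29.4 CPM in NC (median 23.1, log2 fold change 0.61 ± 0.16, adjusted p = 0.0091), with replicate 1 within the NC range. Upp1, uridine phosphorylase, which also acts on fluorouracil, fell, at 25.2, 36.9, 91.4, 26.6 and 30.8 CPM and 48.2 to 266 CPM in NC (median 129, log2 fold change -1.73 ± 0.52, adjusted p = 0.017), and replicate 3 alone lay within the NC range.

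The series title names NAD+ metabolism. Among 14 tested genes of NAD synthesis 2 rose, near the 14.1% of all genes, and none fell, against 12.5% of all genes. Without any one of CAC_FP replicate 4 and NC replicates 5 and 6, 1 fell. Nampt, the rate-limiting enzyme of the salvage pathway, was at 109, 99.1, 136, 84.7 and 107 CPM and 96.3 to 140.4 CPM in NC (median 119, log2 fold change -0.16 ± 0.15, adjusted p = 0.46). Naprt, the entry enzyme from nicotinic acid, a form that gut bacteria supply, was at 26.4, 29.1, 31.3, 47.0 and 27.8 CPM and 35.6 to 57.0 CPM in NC (median 50.0, log2 fold change -0.57 ± 0.22, adjusted p = 0.051), and 4 of 5 CAC_FP libraries were below every NC library. Nadsyn1, the last step of that route, had a log2 fold change of -0.27 ± 0.21, adjusted p = 0.35. Nmrk1, nicotinamide riboside kinase, stood at 0.24 ± 0.18, adjusted p = 0.34, and Nmnat1, the nuclear adenylyltransferase, at 0.33 ± 0.13, adjusted p = 0.060. The rises were Pnp, purine nucleoside phosphorylase, at 90.0, 83.0, 130.2, 64.2 and 85.4 CPM and 51.2 to 59.2 CPM in NC (median 57.3, log2 fold change 0.68 ± 0.17, adjusted p = 0.0056), and Nmnat3, at 8.02, 6.28, 4.15, 4.05 and 5.68 CPM and 2.18 to 4.16 CPM in NC (median 3.07, log2 fold change 0.88 ± 0.25, adjusted p = 0.011). The precursor carrier Slc12a8 was below every NC library in all 5 CAC_FP libraries but not called (-0.81 ± 0.37, adjusted p = 0.10).

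Of 22 NAD-consuming genes 2 rose and 2 fell, against 14.1% and 12.5% of all genes. The number that rose was 1 without CAC_FP replicate 3. The number that fell was 0 to 3 over single omissions, 0 without any one of CAC_FP replicates 2 and 3 and NC replicates 1, 3 and 4, and 1 without any one of CAC_FP replicates 1, 4 and 5 and NC replicates 5 and 6. Cd38, the main NAD glycohydrolase, was at 312, 302, 342, 246 and 274 CPM and 106 to 171 CPM in NC (median 139, log2 fold change 1.11 ± 0.28, adjusted p = 0.0061), without overlap. Bst1, its relative, was at 13.5, 5.45, 13.1, 2.67 and 9.29 CPM and 0.852 to 4.17 CPM in NC (median 2.12, log2 fold change 2.00 ± 0.62, adjusted p = 0.021), with the higher values in the 3 libraries that held adipocyte RNA; its adjusted p was 0.051 without CAC_FP replicate 3. Sirt3, the mitochondrial deacetylase, was at 10.2, 11.9, 10.4, 18.0 and 14.4 CPM and 14.2 to 19.7 CPM in NC (median 18.8, log2 fold change -0.49 ± 0.17, adjusted p = 0.041), a call that was lost without any one of 9 libraries (adjusted p up to 0.13). Sirt1 stood at -0.29 ± 0.13, adjusted p = 0.094, Parp1, the poly-ADP-ribose polymerase of DNA breaks, at 0.34 ± 0.16, adjusted p = 0.11, and Nnmt, which methylates nicotinamide, at 0.56 ± 0.76, adjusted p = 0.61.

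The mitochondrial genome held 5.43% ± 0.67 of counts in CAC_FP (SD, n = 5) and 6.71% ± 1.18 in NC (SD, n = 6), a difference of -1.28 points (exact permutation test, two-sided p = 0.0736). With 1 library left out the p ran from 0.0286 (without CAC_FP replicate 4) to 0.157 (without CAC_FP replicate 3), and it was 0.0317 without NC replicate 4. Of 20 nuclear respiratory chain genes 8 fell and none rose, and the count was 5 to 11 with 1 library left out, 5 without any one of CAC_FP replicates 1, 2 and 5 and NC replicates 2 and 3. Cox6c, a subunit of cytochrome oxidase, was at 94.5, 86.2, 87.6, 116 and 92.5 CPM and 114 to 183 CPM in NC (median 149.6, log2 fold change -0.63 ± 0.13, adjusted p = 0.0018). Xenobiotic enzymes fell in 7 of 19, among them Sult1a1, a sulfotransferase, at 64.4, 27.8, 21.9, 96.4 and 43.6 CPM and 139.7 to 433 CPM in NC (median 309, log2 fold change -2.48 ± 0.54, adjusted p = 0.0024), and Ces2a, a carboxylesterase, at 14.3, 9.57, 11.7, 22.9 and 16.2 CPM and 41.1 to 146 CPM in NC (median 68.3, log2 fold change -2.54 ± 0.66, adjusted p = 0.0074). Targets of Nrf2, the regulator of antioxidant genes, rose in 9 of 19 with none lower (2 lower without CAC_FP replicate 4). Gsta4, a glutathione transferase for lipid aldehydes, was at 83.2, 118, 75.8, 77.6 and 65.0 CPM and 25.0 to 51.7 CPM in NC (median 38.7, log2 fold change 1.12 ± 0.18, adjusted p = 0.00023), and Txnrd1, thioredoxin reductase, at 414, 454, 501, 383 and 373 CPM and 227 to 299.7 CPM in NC (median 252, log2 fold change 0.73 ± 0.14, adjusted p = 0.00092). Neither overlapped. Of 16 genes of the stress response 8 fell and 1 rose, and 5 fell without any one of CAC_FP replicates 1, 2 and 4 and NC replicate 4. Ddit3, the stress factor CHOP, fell, at 12.5, 12.7, 14.2, 15.1 and 11.9 CPM and 19.8 to 31.8 CPM in NC (median 25.2, log2 fold change -0.96 ± 0.17, adjusted p = 0.00051), and Atf4, its upstream regulator, at 152, 152, 194, 137 and 169.6 CPM and 231 to 313 CPM in NC (median 245, log2 fold change -0.68 ± 0.13, adjusted p = 0.00076).

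Nrf2 acts through antioxidant response elements, and the Txnrd1 promoter is shown as the called list member of smallest adjusted p with a match to TGACNNNGC. RefSeq gives Txnrd1 several starts in GRCm38.p6, and the 250 bases before the one with a match (chr10:82858956-82859205, plus strand) hold 1 match, in capitals, read on the opposite strand.
Txnrd1: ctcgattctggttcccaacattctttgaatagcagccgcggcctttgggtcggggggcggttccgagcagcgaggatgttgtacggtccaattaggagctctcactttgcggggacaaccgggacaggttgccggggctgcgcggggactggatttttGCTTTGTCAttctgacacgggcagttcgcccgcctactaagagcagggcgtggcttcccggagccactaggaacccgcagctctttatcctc
The letters were in 7 of 15 Nrf2 targets with a promoter in the table (46.7%) and in 12.4% of all promoters. The sterol element TCACNCCAC was in 1 of 12 cholesterol synthesis genes (8.33%) and 1.24% of all promoters.

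Clock genes changed in both directions. The clock runs on a loop in which Bmal1 with Clock or Npas2 activates Per, Cry and Nr1d genes through E-boxes, and the products of those genes repress in turn. Of 18 clock genes 4 rose and 8 fell, against 14.1% and 12.5% of all genes. The CPM ranges of all 12 did not overlap, against 8.4% (higher) and 8.25% (lower) of all genes. Nr1d1, the repressor Rev-erb alpha, was at 19.1, 15.0, 9.41, 24.6 and 13.9 CPM in CAC_FP and 109 to 143 CPM in NC (median 124, log2 fold change -2.93 ± 0.35, adjusted p = 2.2e-05), the smallest adjusted p of all 15080 genes. Dbp, an output factor, was at 2.71, 2.59, 1.11, 14.1 and 3.43 CPM and 55.1 to 123 CPM in NC (median 80.3, log2 fold change -4.13 ± 0.69, adjusted p = 0.00036), or -5.07 without CAC_FP replicate 4. Ciart, a repressor of the loop, was at 1.67, 1.78, 1.35, 2.19 and 1.80 CPM and 11.8 to 16.5 CPM in NC (median 15.3, log2 fold change -3.07 ± 0.40, adjusted p = 5.3e-05). Tef, Hlf, Nr1d2, Bhlhe41 and Per3 fell too, with log2 fold changes of -1.81 ± 0.39, -1.71 ± 0.37, -1.70 ± 0.35, -1.98 ± 0.31 and -1.57 ± 0.48. The Per3 call was lost without any one of CAC_FP replicates 1, 2 and 3 (adjusted p up to 0.057), and its log2 fold change was -2.21 without CAC_FP replicate 4. Bmal1 was at 29.3, 19.9, 34.5, 17.3 and 24.8 CPM and 5.76 to 12.3 CPM in NC (median 8.73, log2 fold change 1.53 ± 0.29, adjusted p = 0.00091). Npas2 was at 27.1, 25.3, 24.3, 16.7 and 20.9 CPM and 7.46 to 14.7 CPM in NC (median 9.09, log2 fold change 1.21 ± 0.25, adjusted p = 0.0015). Nfil3, a repressor that competes with Dbp, was at 63.9, 32.4, 52.1, 19.9 and 47.6 CPM and 6.58 to 15.3 CPM in NC (median 9.56, log2 fold change 2.08 ± 0.45, adjusted p = 0.0022), and Cry1, a repressor of the loop, rose with a log2 fold change of 0.45 ± 0.12. Per1 and Clock were not called (0.05 ± 0.25, adjusted p = 0.90; 0.21 ± 0.11, adjusted p = 0.18). CAC_FP replicate 4 was the CAC_FP library nearest to NC for all 12 called genes. The hour of sampling per group was not given in the sources used here, and its part in these values was not tested.

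The Ciart promoter is shown for its E-boxes, a motif added after the values were seen (CACGTG, the same on both strands). The 250 bases before the start (RefSeq, GRCm38.p6, chr3:95882229-95882478, minus strand, written along the gene) hold 3 matches, in capitals.
Ciart: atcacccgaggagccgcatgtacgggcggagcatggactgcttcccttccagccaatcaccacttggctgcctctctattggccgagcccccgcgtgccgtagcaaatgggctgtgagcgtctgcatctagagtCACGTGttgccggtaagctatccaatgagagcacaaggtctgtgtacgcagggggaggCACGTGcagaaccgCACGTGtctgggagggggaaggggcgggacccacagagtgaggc
The letters were in 5 of 14 clock genes with a promoter in the table (35.7%; Bhlhe41, Ciart, Cry1, Per1 and Tef) and in 7.15% of all promoters. Those 5 genes include ones that fell, one that rose and one that was not called.

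**Figure D4:**
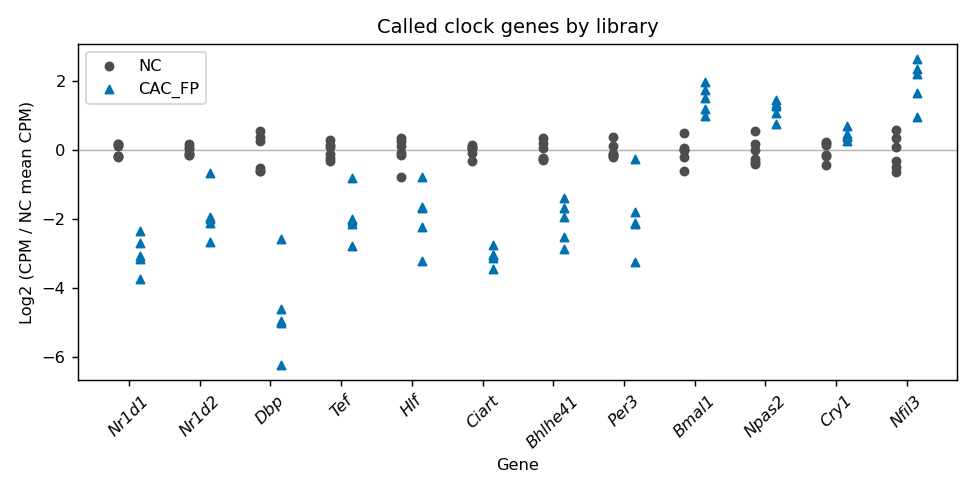
Log2 ratio of CPM to the NC mean for 12 called clock genes, with 1 point per library of NC and CAC_FP; a circle is NC and a triangle CAC_FP. For 8 genes every CAC_FP library lies below every NC library, and for Bmal1, Npas2, Cry1 and Nfil3 above.

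Muscle and stromal genes were checked as signs of other tissue. Smooth muscle genes fell in 11 of 16, or 7 without CAC_FP replicate 3, with a median of -1.13. Actg2, enteric smooth muscle actin, was at 305, 165, 99.0, 119.6 and 292 CPM and 493 to 1325 CPM in NC (median 829, log2 fold change -2.15 ± 0.43, adjusted p = 0.0013), lowest in replicates 3 and 4. None of 12 endothelial genes was called, and of 17 fibroblast genes 1 rose and 2 fell, against 14.1% and 12.5% of all genes. That number of falls was 0 without any one of CAC_FP replicates 2 and 4 and NC replicates 1 and 2, and 1 without any one of CAC_FP replicates 1 and 3 and NC replicates 3 and 4. Pdgfra, a receptor of crypt-associated fibroblasts, was at 271, 240.5, 171, 123 and 238 CPM and 76.4 to 92.4 CPM in NC (median 82.7, log2 fold change 1.31 ± 0.28, adjusted p = 0.0022), without overlap. The part of a different muscle share in the other gene groups was not tested.

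Whether this pattern differed from that of FOLFOX without probiotic was asked by comparing CAC_FP with CAC_F, which is the difference between their comparisons with NC, since both share the 6 NC libraries. No gene of 15080 passed (0.0%) in edgeR's test, 2401 had an unadjusted p below 0.05, and the smallest adjusted p was 0.12. DESeq2 called 122 genes higher and 122 lower, voom with library weights 15 and 23, and edgeR 365 and 251 without CAC_F replicate 3 and 0 and 3 without CAC_F replicate 5. CAC_F against NC gave 3409 higher (22.6%) and 3567 lower genes (23.7%), 46.3% of those tested. In the cytokine list the median log2 fold change against NC was 2.65 in CAC_FP and 4.94 in CAC_F, with a median of -2.18 between them, and no member was called. Ptgs2 was at 321, 255, 7.97, 6.21 and 10.5 CPM in CAC_F, a log2 difference of -4.24 ± 0.92, adjusted p = 0.12, with the high values in CAC_F replicates 1 and 2. Lif, a cytokine of the interleukin-6 family, was at 13.7, 13.5, 10.4, 4.43 and 7.88 CPM in CAC_FP and 109, 90.0, 10.1, 17.2 and 25.6 CPM in CAC_F (-2.33 ± 0.51, adjusted p = 0.12). For Reg3b the difference was -0.61 ± 0.82, adjusted p = 0.74, for Clca1 0.66 ± 0.55, adjusted p = 0.57, for H2-Aa -0.08 ± 0.32, adjusted p = 0.93 and for Bmal1 0.33 ± 0.30, adjusted p = 0.60. Among NAD genes Naprt stood at 0.55 ± 0.22, adjusted p = 0.24, Nadsyn1 at 0.78 ± 0.22, adjusted p = 0.14, Nampt at 0.05 ± 0.16, adjusted p = 0.91 and Cd38 at -0.44 ± 0.29, adjusted p = 0.47. By unadjusted p the 5 leading genes were Tatdn2 (-0.59 ± 0.11), Hddc2 (-0.61 ± 0.12), Commd10 (-0.43 ± 0.09), Arih2 (-0.62 ± 0.13) and Leng1 (0.58 ± 0.12), each with an adjusted p of 0.12.

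**Figure D5:**
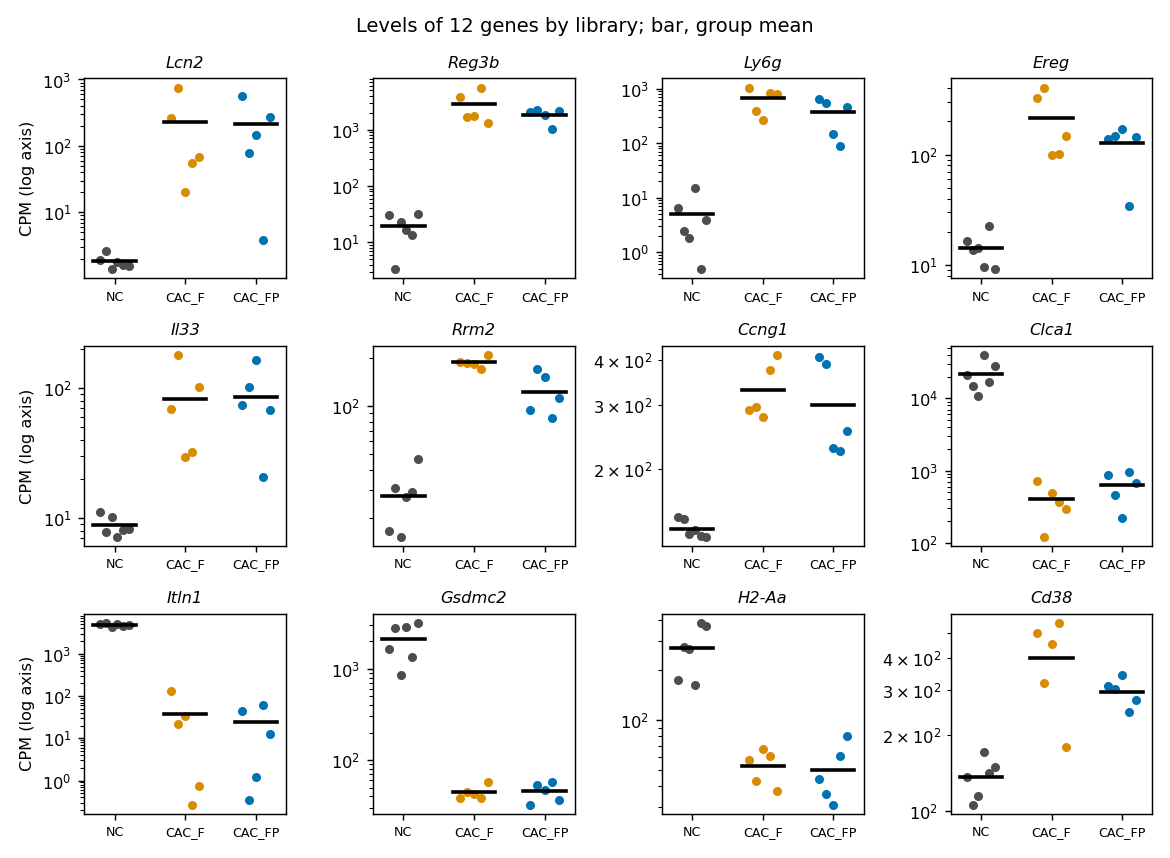
CPM on a log axis of 12 genes in each library of NC, CAC_F and CAC_FP, with the group mean as a bar. Reg3b and Ly6g are far above NC in both treated groups, Clca1 and Gsdmc2 far below, and the CAC_F and CAC_FP ranges overlap for every gene shown but Rrm2.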

How the data were processed

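RNA-seq libraries of mouse colon were compared as 5 CAC_FP against 6 NC samples, with 5 CAC_F samples set beside them. Libraries were stranded by the dUTP method from RNA of integrity number above 7, per the labels' protocols. FastQC, cutadapt 1.9 and HISAT2 are named in the submitters' processing notes, and the genome build and counting tool were not given in the sources used here. The authors deposited raw counts and FPKM per gene, and both come from 1 table of 39971 genes. Counts were fitted with edgeR 4.0.16 (R 4.3.3) by the quasi-likelihood test, with TMM scaling and 1 mean per group over all 27 libraries, and adjusted by Benjamini-Hochberg over the 15080 genes that reached an FPKM of 1 in 5 or more libraries. A gene was called at an adjusted p below 0.05. In data simulated for CAC_FP against NC on 15080 genes, 66 genes were changed 1.5-fold, 69 were changed 2-fold and 65 were changed 4-fold. Each gene otherwise had 1 mean in all libraries, and counts were drawn independently. Of the changed genes 34.8%, 71.0% and 92.3% were recovered, with 3 false calls. The real data had 26.5% of genes called and libraries that stood apart, so these shares may not hold for them. FPKM entered limma 3.58.1 as an alternative, on log2(FPKM + 1) and log2(FPKM + 0.1), and DESeq2 1.42.0, voom, median-ratio size factors, other filters, the 2 groups alone, a replicate block and the omission of each library were further ones. Leaving out CAC_FP replicates 3 and 4, and leaving out the libraries of at least 10 CPM of Adipoq, were chosen after seeing the data.

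Genes and gene lists were chosen with earlier results of these data known. Named genes were those with the largest non-overlapping changes of at least 2-fold, those with the smallest adjusted p in each direction, up to 4 per list by adjusted p, and a set list that includes the NAD genes. Pla2g2a, Pigr, Cxcl1, Timp1, Ptgs2, Adipoq, S100a9, Ccr2, Ciita, Spdef, Clu, Gadd45a, Bmal1, Npas2, Nfil3, Lif, Zg16, Tff3, Slc12a8, Tef, Hlf, Nr1d2, Per3, Cry1, Per1, Clock, Camp, Cxcr2, Elane, Ngp, Hoxa9, Hoxa10 and Hoxa11 fall outside that rule and were chosen after their values were seen. The result of 1 list member is not reported here. Replicate numbers were read as names: over 5 same-numbered pairs the correlation of deviations from group means was -0.0429 to 0.168. Promoters came from RefSeq (GRCm38.p6) by gene symbol, and no coordinate of the deposited table was set against them.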

Additional observations from a re-analysis of the deposited data

Results flagged for a closer look

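In groups of 5 and 6 libraries, 210 sets of values were examined, and in 28 cases the highest or lowest library stood far from the rest (Dixon's ratio). For normally distributed values the cut-offs used give about 1 group in 20 by chance. CPM need not be so distributed, and genes were chosen with earlier results known. That rate may therefore not hold here, and the 28 cases are a description. CAC_FP replicate 1 was far above the rest of its group for Csf3 (71.0 CPM, next 15.2). NC replicate 4 was far above the rest of its group for Csf3 (0.0803 CPM, next 0), Isg15 (86.3 CPM, next 34.5), Mptx2 (1108 CPM, next 143), Pyy (28.8 CPM, next 18.1), Hoxa13 (38.8 CPM, next 5.28), Gml (0.145 CPM, next 0.0347) and Krt4 (0.225 CPM, next 0.0712). NC replicate 4 was far below the rest of its group for Spdef (301 CPM, next 364). NC replicate 5 was far above the rest of its group for Ptgs2 (10.2 CPM, next 5.91) and Myc (49.1 CPM, next 28.5). NC replicate 6 was far above the rest of its group for Cd68 (20.7 CPM, next 13.8), Mcpt1 (928 CPM, next 163) and Hba-a1 (20.1 CPM, next 11.6). NC replicate 6 was far below the rest of its group for Sirt3 (14.2 CPM, next 18.0). CAC_FP replicate 3 was far above the rest of its group for Upp1 (91.3 CPM, next 36.9) and Apob (248 CPM, next 7.99). CAC_FP replicate 3 was far below the rest of its group for Sst (2.60 CPM, next 7.78) and Clu (83.2 CPM, next 139). NC replicate 2 was far above the rest of its group for Cdx1 (424 CPM, next 317). CAC_FP replicate 4 was far above the rest of its group for Naprt (47.0 CPM, next 31.3), Cox6c (116 CPM, next 94.5) and Dbp (14.1 CPM, next 3.43). CAC_FP replicate 4 was far below the rest of its group for Ereg (34.1 CPM, next 138). CAC_FP replicate 4 also lay apart on the first principal component, at 0.183, with the next library of its group at 40.6. NC replicate 1 was far below the rest of its group for Pnp (51.2 CPM, next 56.3). CAC_FP replicate 2 was far above the rest of its group for Spink6 (6.81 CPM, next 1.61) and Krt6a (3.00 CPM, next 0.646). Why these libraries differ was not tested.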

How the results depend on the processing

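Against NC, the 2121 higher and 1881 lower genes of CAC_FP became 3287 and 3382 with voom, 3294 and 1039 with limma on log2(FPKM + 1), 3333 and 1019 on log2(FPKM + 0.1), and 98 and 53 without the libraries of at least 10 CPM of Adipoq (fewer samples). With a mean FPKM of at least 5, which tests 8186 genes, 1437 were higher and 1147 lower, and CAC_F against NC gave 2210 and 2076. Leaving out 1 library gave 1691 to 2418 higher and 1110 to 1824 lower genes. For CAC_FP against CAC_F, where edgeR called none, DESeq2 called 122 and 122 and voom 15 and 23; leaving out 1 library gave 0 to 365 higher and 0 to 251 lower. With the replicate number as a block, 2218 genes were higher and 2022 lower against NC and 0 differed from CAC_F; 0 of 5 samples correlated best with their own number, and the pairing rests on no label. The mitochondrial share differed by -1.55 points without CAC_FP replicate 4 (exact permutation p = 0.0286) and by -1.55 without NC replicate 4 (exact permutation p = 0.0317), with -1.55 to -0.986 over single omissions (p up to 0.157, without CAC_FP replicate 3). Log2 fold changes turned in sign for 2 genes not called: over single omissions Cdkn1a ran from -0.0492 (without CAC_FP replicate 1) to 0.189 (without NC replicate 4), with -0.0247 without NC replicate 5, and Per1 from -0.00214 (without CAC_FP replicate 1) to 0.134 (without CAC_FP replicate 3). Without the Adipoq libraries Ptgs2 was -0.367, Nnmt -0.123 and Apob, a called gene, -0.177. The cause was not tested. Genes near 0 counts in one group are limited by depth.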

Other observations

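Of 7 tested genes of squamous epithelium 2 were higher (Krt4 and Krt6a) and 1 lower (Krt17), against 14.1% and 12.5% of all genes. The summed level of the list was 665, 876, 848, 666 and 498 CPM in CAC_FP (median 666) and 418 to 1409 CPM in NC (median 785). Spink6, a protease inhibitor of skin, held no count in NC and was at 1.61, 6.81, 1.21, 0.877 and 1.54 CPM in CAC_FP, at least 299.6-fold higher against a floor of 3 counts over the group. Gml, a gene of the Ly6 family, was at 12.3, 6.03, 2.34, 0.292 and 2.46 CPM in CAC_FP and 0 to 0.145 CPM in NC (median 0, log2 fold change 7.22 ± 1.40, adjusted p = 0.0010), with 6.49 without CAC_FP replicate 1 and 9.14 without NC replicate 4. Krt4, a keratin of squamous lining, was at 3.50, 4.80, 0.354, 1.32 and 0.625 CPM and 0 to 0.225 CPM in NC (median 0, log2 fold change 5.39 ± 0.97, adjusted p = 0.00066), and its log2 fold change was 7.15 without NC replicate 4. Krt6a, a keratin of stratified epithelium under stress, held no count in NC and was at 0.274, 3.00, 0.646, 0.265 and 0.639 CPM in CAC_FP, at least 119.8-fold higher against the same floor.

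Apob, which packages dietary lipid in enterocytes of the small intestine, was at 7.99, 6.50, 248, 6.28 and 6.71 CPM in CAC_FP and 3.74 to 12.9 CPM in NC (median 5.83, log2 fold change 3.02 ± 0.89, adjusted p = 0.015). Replicate 3 held the largest value, and without it the log2 fold change was 0.04 (adjusted p = 0.97). The values of Apob other than in replicate 3 lay within the NC range. Apob is on the small intestine and Paneth cell list, where 2 of 7 tested genes were higher and 1 lower. These counts stand against 14.1% and 12.5% of all genes. Without CAC_FP replicate 3, 1 gene of the list was still called higher. None was called lower without any one of CAC_FP replicates 1 to 5 and NC replicates 1 to 4.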
